A study of Mus musculus with 312 samples.

Results

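The 10 genes described here encode matricellular proteins and target genes of the transcriptional co-activator YAP, and they were chosen by name from the 25136 genes used. Of these, 4 are targets of YAP (Ccn1, Ccn2, Amotl2 and Ankrd1) and 6 encode secreted proteins of the matrix (Sparc, Spp1, Thbs1, Tnc, Postn and Fn1). Ccn1 and Ccn2 are the current symbols of Cyr61 and Ctgf. Their RNA was measured in single mammary gland cells of the mouse strain FVB/NJ, all labelled as basal, with no treatment, from adult animals (237 cells) or from pregnant animals (75 cells). Adult cells fall into 112 whose title carries the mark (2), called marked below, and 125 without it, called unmarked. The labels explain neither the mark nor the day of pregnancy, and they tie no cell to an animal, although the study used more than 1 mouse for each stage. The study describes a sort of adult basal cells by surface markers, but speaks of total epithelium for pregnancy, so that the basal identity of the pregnancy cells rests on their label and on marker genes.

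The basal epithelium of the mammary gland surrounds the luminal cells, contracts to expel milk and rests on the basement membrane. Matricellular proteins are secreted into the matrix, where they act on cell adhesion and signalling more than on the strength of the tissue. YAP and its relative TAZ enter the nucleus when the Hippo kinases are inactive, as in spread or stretched cells, and drive transcription with the TEAD factors. Ccn1 and Ccn2, themselves matricellular, are among the best known of their targets.

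Cells were kept if they had 50000 assigned reads or more and at least 1000 genes with a read, both counted without mitochondrial and ribosomal protein genes. This left 81 marked adult, 58 unmarked adult and 71 pregnancy cells. Median assigned reads per retained cell were 174910 in the marked, 101320 in the unmarked and 230645 in the pregnancy set, with a range of 51464 to 405910 over all retained cells. Of 11 core basal genes, at least 6 were detected in 93.8% of marked, 87.9% of unmarked and 98.6% of pregnancy cells. Median genes per cell at an equal depth of 50000 reads were 2313, 2210.5 and 3220, and the median mitochondrial share of reads was 9.65%, 15.6% and 18.4%, in the same order. Cells with 3 or more genes of the fibroblast list numbered 0 marked, 3 unmarked and 3 pregnancy cells. For the immune list these numbers were 1, 0 and 0, for the endothelial list 0, 2 and 0, and for the pericyte list 2, 0 and 0. Levels below are CPM, the reads of a gene per 1e+06 assigned reads in that cell, and 100 CPM was the limit for calling a gene detected. Each set was treated as 1 sample, so no difference below has a replicate check and no test was possible. All intervals are 95% intervals that treat cells or reads as independent draws, and they measure no variation between animals or capture runs. The stage of the animals and the run in which cells were captured cannot be told apart.

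Ccn1, Ccn2 and Thbs1 were the members with higher mean CPM in pregnancy than in adult cells by 2-fold or more, and this held against each adult set taken alone. Ankrd1 had no read in any pregnancy cell but was present in both adult sets. Sparc, Postn and Amotl2 differed by less than 2-fold between pregnancy and all adult cells. Spp1, Tnc and Fn1 were low in most cells of each set. Thus 3 of 10 members were higher by 2-fold or more, beside 15.6% of the 4548 genes whose mean reached 50 CPM in adult or pregnancy cells. A further 2 members, Ankrd1 and Tnc, were lower by 2-fold or more, beside 13.5% of those genes. Only 8 members reached that mean, since Spp1 and Tnc stayed under it in both stages. Of these 8, 3 were higher and 1 was lower by 2-fold or more. The median log2 ratio was 0.49 over these 8 members and 0.05 over the 4548 genes, and -0.04 over all 10 members. The ratios were computed from mean CPM with a pseudocount of 10 CPM, which understates differences of low genes. The members and the lists below were chosen with earlier results of these data known. The shares of all genes beside their counts are therefore a description and no test.

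**Figure D1:**
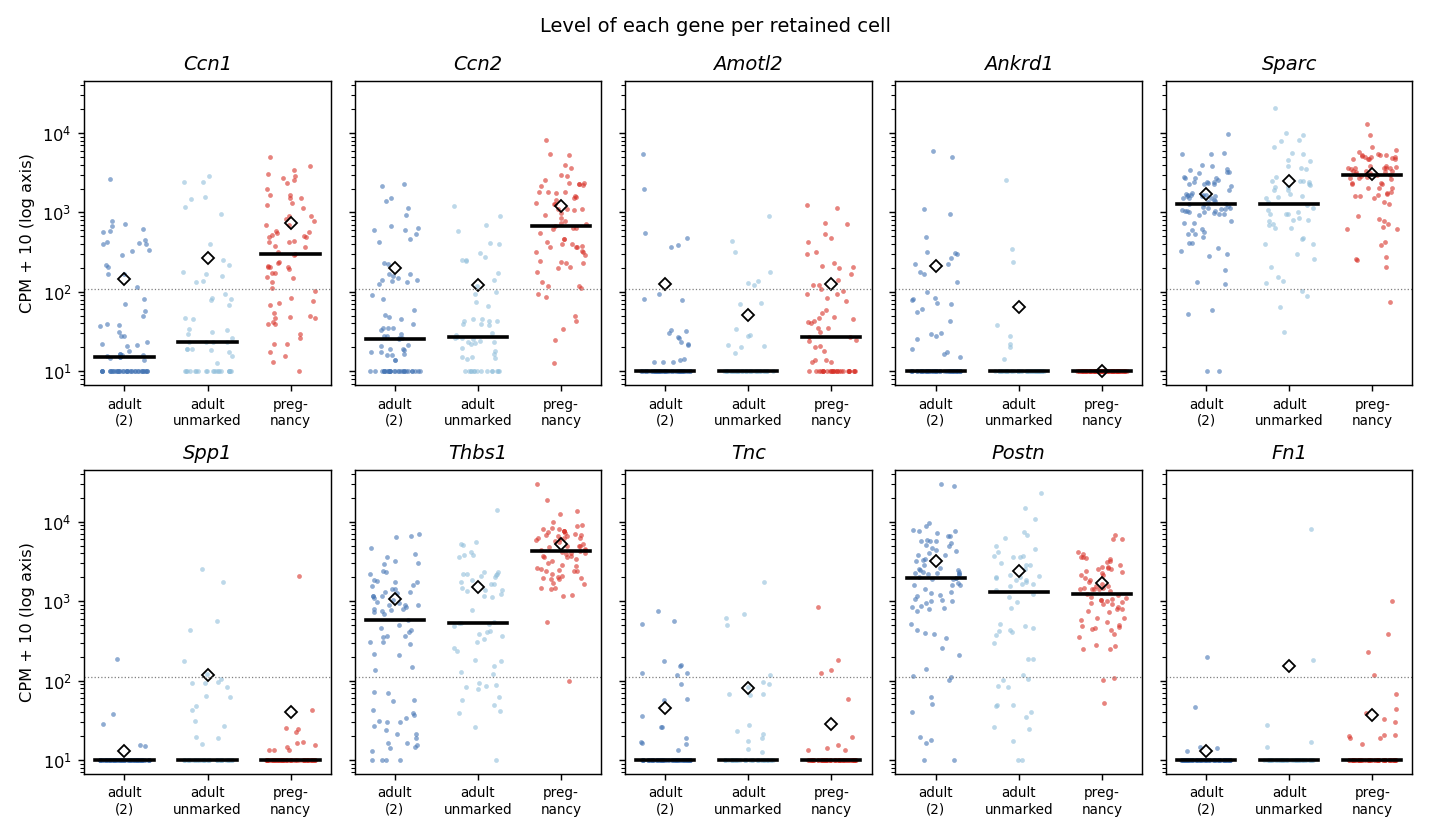
CPM plus 10 on a log axis for each of the 10 genes in every retained cell (81 marked adult, 58 unmarked adult and 71 pregnancy cells), with black bars at the median, open diamonds at the mean and a dotted line at the detection limit of 100 CPM. Ccn1, Ccn2 and Thbs1 lie higher in pregnancy, Ankrd1 has no read there, and Spp1, Tnc and Fn1 are at 0 in most cells.

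The 2 adult sets measure how far groups of the same stage lie apart. Unmarked and marked cells differed by 2-fold or more for 4 of 10 members, beside 35.6% of the 4578 genes that reached this mean in either adult set. These members were Spp1 and Fn1, higher in unmarked cells, and Amotl2 and Ankrd1, higher in marked cells. The log2 ratio of unmarked over marked cells was 3.17 for Spp1, 3.56 for Fn1, -1.32 for Amotl2 and -1.68 for Ankrd1. Ccn1, Ccn2, Thbs1, Sparc, Postn and Tnc lay within 2-fold between the adult sets, at 0.90 for Ccn1 and -0.71 for Ccn2. With cells of at least 100000 reads and 1500 genes these became 1.48 and -1.79, and with summed reads 1.04 and -1.23, so that Ccn1 and Ccn2 were then also 2-fold apart, in opposite directions. The median absolute log2 ratio between the adult sets was 0.68 over the 4578 genes.

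**Figure D2:**
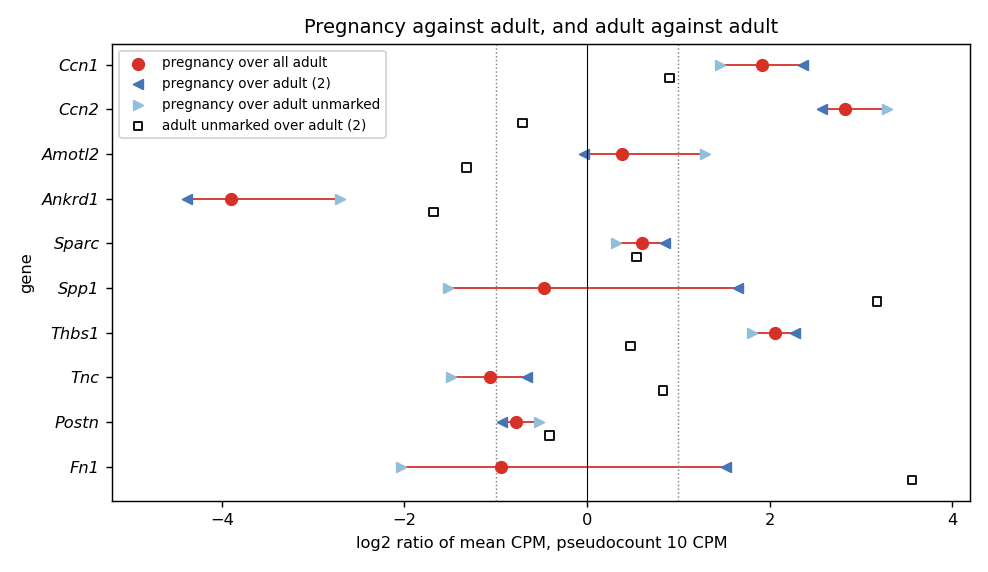
Log2 ratio of mean CPM (pseudocount 10 CPM) for each gene, for pregnancy over all adult cells (red circles), over each adult set (triangles) and for unmarked over marked adult cells (open squares), with dotted lines at 2-fold. Ccn1, Ccn2 and Thbs1 lie beyond 2-fold against both adult sets, whereas Spp1 and Fn1 lie on opposite sides of 0 against the 2 adult sets.

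Among the YAP targets, the promoter sequences show which genes carry the core TEAD motif close to their start. Promoter windows of 250 bases before to 50 after the start, from RefSeq on GRCm38.p6, were matched for 7 members (Ccn1, Amotl2, Ankrd1, Sparc, Spp1, Tnc and Postn) and not for Ccn2, Thbs1 and Fn1. The motif searched was GGAATG on both strands. It occurred in 3 of these 7 members (the first listed window was used), beside 13.6% of the 18458 promoters of the genes used. The 3 members were Ccn1, Amotl2 and Ankrd1. The 250 bases before the start of Ccn1 and of Ankrd1, a YAP target that was higher and one without reads in pregnancy, are printed below, 5′ to 3′ on the strand of the gene, with the motif in capitals. The CArG box, bound by serum response factor, was found in 0 of the 7 members and in 1.58% of all windows. The Ccn1 stretch lies at chr3:145649986-145650235 on the minus strand and the Ankrd1 stretch at chr19:36119845-36120094 on the minus strand.
Ccn1: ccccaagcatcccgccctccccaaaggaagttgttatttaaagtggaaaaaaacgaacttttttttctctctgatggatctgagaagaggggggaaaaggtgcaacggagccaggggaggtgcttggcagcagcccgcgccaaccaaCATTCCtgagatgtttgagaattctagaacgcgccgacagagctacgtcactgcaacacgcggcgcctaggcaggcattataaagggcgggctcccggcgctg
Ankrd1: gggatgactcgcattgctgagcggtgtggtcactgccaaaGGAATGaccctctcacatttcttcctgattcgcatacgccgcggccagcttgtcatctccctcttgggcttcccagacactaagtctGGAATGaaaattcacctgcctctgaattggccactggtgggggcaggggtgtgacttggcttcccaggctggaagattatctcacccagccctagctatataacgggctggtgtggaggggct

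The motif began 103 bases before the start in Ccn1, on the opposite strand. In Amotl2 it began 65 bases before the start of the window's transcript, also on the opposite strand, but that start lies 713 bases inside the annotated gene. Ankrd1 held it at 210 and at 123 bases before the start, and 1.24% of promoters held it more than once. The 3 genes that share these letters differed in their levels, as given next.

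Ccn1 (Entrez 16007, chr3:145646971-145649985 in GRCm38) encodes a secreted protein that binds integrins and heparan sulphate. Its level had a minimum of 0, a median of 4.98 and a maximum of 2644 CPM in marked cells. In unmarked cells the median was 13.3 and the maximum 2827 CPM, again from 0. In pregnancy cells the median was 286 CPM (interval 164 to 494) and the range 0 to 4932 CPM. Most adult cells thus had few or no reads and a minority reached the pregnancy levels, with 22 of 139 adult cells above the pregnancy median and 5 of 71 pregnancy cells above every adult cell. Mean CPM was 133 in marked, 258 in unmarked and 728 in pregnancy cells, a log2 ratio of 1.92 against all adult cells, 2.36 against marked and 1.46 against unmarked cells. The ratio ranked at the 96.0 percentile of the 4548 genes. Ccn1 was detected in 24.7% of marked (interval 15.8 to 35.5%), 25.9% of unmarked (15.3 to 39.0%) and 70.4% of pregnancy cells (58.4 to 80.7%). With each cell thinned to 50000 reads these shares were 24.7%, 27.6% and 77.5%. The reads behind the means were 3470 in adult cells (exact Poisson interval 3356 to 3587) and 13267 in pregnancy cells (13042 to 13495). The unmarked cell with the highest level, at 2827 CPM, had none of the 11 core basal genes but 5 of 8 luminal genes detected.

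Ccn2 (Entrez 14219, chr10:24595442-24598683), known as connective tissue growth factor, had the largest ratio of pregnancy over adult cells among the 10 genes. Marked cells ranged from 0 to 2284 CPM with a median of 15.2. Unmarked cells ranged from 0 to 1206 CPM with a median of 16.7. Pregnancy cells ranged from 2.52 to 8240 CPM with a median of 669 (interval 387 to 1089), and all 71 had at least 1 read. The upper quartile of adult cells was 124 CPM, below the lower quartile of pregnancy cells at 259 CPM. The means were 192 in marked, 114 in unmarked and 1192 CPM in pregnancy cells. The log2 ratio was 2.83 against all adult cells, 2.57 against marked and 3.28 against unmarked cells, at the 99.4 percentile of the 4548 genes. Detection was 29.6% in marked (interval 20.0 to 40.8%), 24.1% in unmarked (13.9 to 37.2%) and 90.1% in pregnancy cells (80.7 to 95.9%). Reads numbered 4203 in adult (4077 to 4332) and 18905 in pregnancy cells (18637 to 19176), and the highest cell held 10.3% and 9.74% of the summed CPM.

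Amotl2 (Entrez 56332, chr9:102717091-102733418), a junctional scaffold of the angiomotin family that binds YAP, was spread more thinly. It had a median of 0 in both adult sets and of 17.3 CPM in pregnancy cells. The highest values were 5399 CPM in a marked, 880 CPM in an unmarked and 1220 CPM in a pregnancy cell. The adult maximum stood apart, since it held 57.1% of the summed CPM of the marked set and the next marked cell had 1938 CPM. Mean CPM was 117 in marked, 40.7 in unmarked and 114 in pregnancy cells, a log2 ratio of 0.38 over all adult cells and of -0.03 and 1.29 over the marked and the unmarked set. Without the highest cell of each set the ratio over all adult cells became 1.10. By detection, the pregnancy share of 23.9% (interval 14.6 to 35.5%) lay above 7.41% of marked (2.77 to 15.4%) and 12.1% of unmarked cells (4.99 to 23.3%), and the intervals overlapped.

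Ankrd1 (Entrez 107765, chr19:36111965-36119844) encodes an ankyrin repeat protein of the nucleus and sarcomere that is induced by stretch in muscle. It had reads in 31 of 81 marked cells and 8 of 58 unmarked cells, and in 0 of 71 pregnancy cells, for which the limit set by 3 cells is 4.23% and the upper end of the exact interval 5.06%. At 100 CPM, Ankrd1 was detected in 17.3% of marked (interval 9.78 to 27.3%), 5.17% of unmarked (1.08 to 14.4%) and 0% of pregnancy cells. At that limit the unmarked and pregnancy intervals overlapped. Medians were 0 CPM in each set, and the highest marked and unmarked cells reached 5956 and 2570 CPM. The mean was 199 CPM for marked and 55.2 CPM for unmarked cells. One marked cell held 36.9% of the marked sum, the next reached 4934 CPM, and 1 cell held 80.2% of the unmarked sum. Adult cells held 3719 Ankrd1 reads (3600 to 3840) and pregnancy cells 0. Against a floor of 3 reads over the pooled pregnancy cells, the pooled level of these 71 cells was at least 922-fold lower than in adult cells. The bound was 1272-fold against marked and 173-fold against unmarked cells. Single cells carried much of this, as 1 marked cell held 1575 of the 3496 marked reads and 1 unmarked cell 146 of the 223 unmarked reads. Without the cell with the most reads the bounds were 539-fold, 714-fold and 60.3-fold, an alternative chosen after seeing the data. All these bounds treat reads as independent draws and cover the 71 sequenced cells only. They do not bound the level in pregnancy cells at large, of which up to 5.06% could carry Ankrd1 by the interval above. With thinning to 50000 reads, 33.3% of marked and 10.3% of unmarked cells kept a read. Ankrd1 was also at 0 reads in the 4 pregnancy cells that were not retained, which held 93619 assigned reads.

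**Figure D3:**
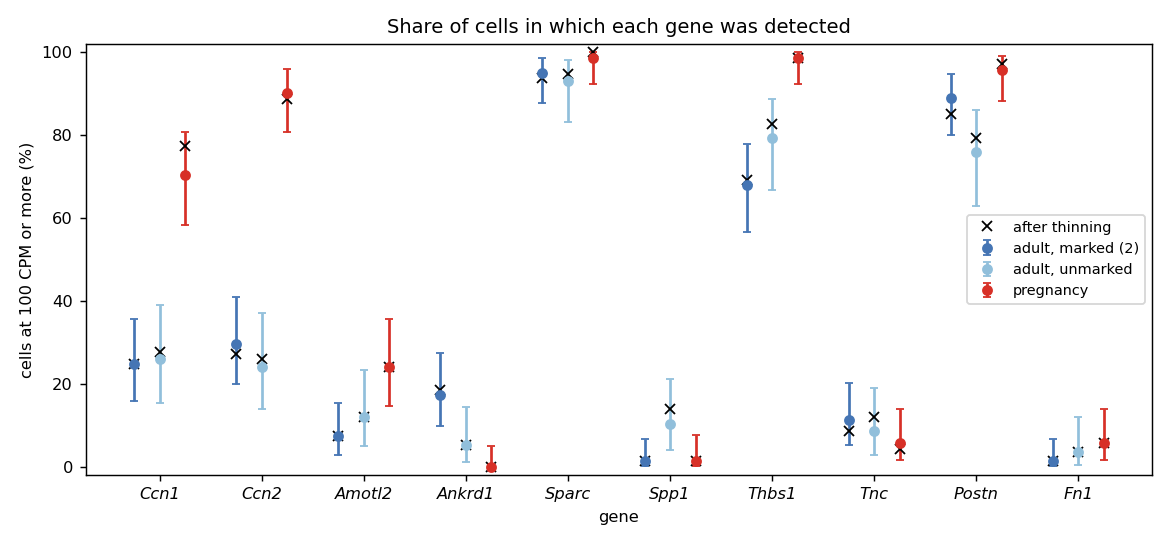
Share of retained cells with each gene at 100 CPM or more, in percent, as points with exact Clopper-Pearson 95% intervals for 81 marked adult, 58 unmarked adult and 71 pregnancy cells, and as crosses after each cell was thinned to 50000 reads. The pregnancy intervals of Ccn1, Ccn2 and Thbs1 lie above those of both adult sets, and thinning moves no share out of its interval except Sparc in pregnancy.

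Thbs1 (Entrez 21825, chr2:118111876-118127133) encodes thrombospondin 1, a large secreted glycoprotein that binds CD36 and CD47 and inhibits blood vessel growth. It was detected in most adult cells and had the highest mean CPM of the 10 genes in pregnancy. Marked cells ranged from 0 to 6955 CPM with a median of 561. Unmarked cells ranged from 0 to 14115 CPM with a median of 525. Pregnancy cells ranged from 87.3 to 29710 CPM with a median of 4222 (interval 3408 to 5600). The lower quartile in pregnancy, 2383 CPM, lay above the upper quartile of all adult cells, 1643 CPM. Mean CPM was 1061 in marked, 1478 in unmarked and 5186 in pregnancy cells, a log2 ratio of 2.06 against all adult cells, 2.28 against marked and 1.80 against unmarked cells. Detection was 67.9% (interval 56.6 to 77.8%), 79.3% (66.6 to 88.8%) and 98.6% (92.4 to 100%). The reads behind these means numbered 23067 in adult (22770 to 23367) and 83352 in pregnancy cells (82787 to 83920).

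Sparc (Entrez 20692, chr11:55394159-55420080), a collagen-binding protein of basement membranes, was the most evenly expressed member. Its median was 1286 CPM in marked (range 0 to 9798), 1278 CPM in unmarked (20.9 to 20397) and 2918 CPM in pregnancy cells (65.5 to 12897). Detection was 95.1%, 93.1% and 98.6%. The means of 1688, 2462 and 3059 CPM gave a log2 ratio of 0.60 against all adult cells, 0.85 against marked and 0.31 against unmarked cells. The higher mean of the unmarked set came with a median that matched the marked set within its interval (1050 to 1622 CPM). The 3 unmarked cells with the most Sparc lay between 9493 and 20397 CPM. The highest of them had 3 endothelial, 2 fibroblast and 8 core basal genes detected, and the next had 1 core basal and 2 fibroblast genes. With cells left out that lacked the basal genes or carried another list, as described below, the log2 ratio of unmarked over marked cells went from 0.54 to 0.23.

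Postn (Entrez 50706, chr3:54359267-54391041) encodes periostin, a matricellular protein that binds collagen and tenascin C. It had the highest mean CPM of the members in all adult cells. The median was 1920 CPM in marked (range 0 to 30275), 1293 CPM in unmarked (0 to 22955) and 1236 CPM in pregnancy cells (42.6 to 6755). Adult levels were spread more widely at both ends, and the 2 highest marked cells stood at 30275 and 28599 CPM, with the next at 9603 CPM. Mean CPM was 3180, 2392 and 1661, a log2 ratio of -0.78 against all adult cells, -0.93 against marked and -0.52 against unmarked cells. The share of cells with Postn went the other way, at 88.9% (interval 79.9 to 94.8%), 75.9% (62.8 to 86.1%) and 95.8% (88.1 to 99.1%). On the mean of log2(CPM + 10), pregnancy was higher by 0.25, beside a median of 0.38 over all genes on that scale.

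Spp1, Tnc and Fn1 had a median of 0 CPM in all 3 sets, and their means rested on a few cells. Spp1 (Entrez 20750, chr5:104435111-104441053) encodes osteopontin, a secreted phosphoprotein that binds integrins and CD44. It was detected in 1 of 81 marked, 6 of 58 unmarked and 1 of 71 pregnancy cells, with means of 2.92, 107 and 30.6 CPM. A single pregnancy cell at 2069 CPM held 95.1% of the pregnancy sum. It had 5 core basal and 5 luminal genes detected and a mitochondrial share of 56.5%. The highest unmarked cells, at 2527 and 1751 CPM, had 5 and 4 luminal, 4 and 2 fibroblast and 1 and 3 endothelial genes. They also had 10 and 8 core basal genes. Spp1 reads were present at any level in 20 of 58 unmarked cells, against 5 of 81 marked and 12 of 71 pregnancy cells.

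Tnc (Entrez 21923, chr4:63959785-64047015) encodes tenascin C, a hexameric matrix protein that modulates adhesion to fibronectin. It was detected in 11.1% of marked (interval 5.21 to 20.0%), 8.62% of unmarked (2.86 to 19.0%) and 5.63% of pregnancy cells (1.56 to 13.8%). Means were 35.0, 70.0 and 18.6 CPM, and the log2 ratio was -1.06 against all adult cells, -0.66 against marked and -1.49 against unmarked cells. The highest cells reached 733, 1729 and 832 CPM, and the pregnancy cell at 832 CPM held 63.1% of its set's sum. The shares overlapped in their intervals.

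Fn1 (Entrez 14268, chr1:71585473-71653280) encodes fibronectin, which assembles into fibrils that cells grip through integrins. It was detected in 1 marked, 2 unmarked and 4 pregnancy cells, with means of 2.90, 142 and 27.0 CPM. The unmarked mean came from 1 cell at 8033 CPM, which held 97.6% of the sum and had 5 of 8 fibroblast genes and 8 core basal genes detected. Without the highest cell of each set, the log2 ratio of pregnancy over all adult cells turned from -0.94 to 0.97. A pregnancy cell with 5 fibroblast genes was second in its set, at 374 CPM, and the highest pregnancy cell, at 1006 CPM, had 1 fibroblast and 9 core basal genes. Cells with at least 1 Fn1 read numbered 5 of 81, 5 of 58 and 15 of 71.

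The list of fibroblast markers was examined beside these genes because fibroblasts make much of the same matrix. Its 8 genes summed to a median of 4.22 CPM in marked (range 0 to 3262), 40.2 CPM in unmarked (0 to 38176) and 624 CPM in pregnancy cells (55.2 to 5782). Dcn, which encodes the proteoglycan decorin, made up most of the pregnancy value, with a mean of 1113 CPM and detection in 93.0% of cells, against means of 107 and 677 CPM for marked and unmarked cells. Pdgfra, a receptor of fibroblasts, had means of 0.06 in marked, 12.0 in unmarked and 60.0 CPM in pregnancy cells, a log2 ratio of 2.22. Unlike Dcn, it was detected in only 4.23% of pregnancy and 1.72% of unmarked cells, with a median of 0 in each set. The collagen genes Col1a1 (1.59, 26.3 and 9.37 CPM) and Col3a1 (3.53, 122 and 22.8 CPM) had their highest mean in unmarked cells. With cells left out that had under 6 core basal genes or 3 genes of the fibroblast, immune, endothelial or pericyte list, 123 adult and 67 pregnancy cells remained. The log2 ratio of pregnancy over adult was then 2.09 for Ccn1, 2.71 for Ccn2, 2.12 for Thbs1 and -4.06 for Ankrd1, while Fn1 moved to 1.33. The members higher by 2-fold or more were then 4, with Fn1 added, and those lower were 2.

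Together the 10 genes took 0.680% of the assigned reads of marked cells, 0.649% of those of unmarked cells and 1.24% of those of pregnancy cells. The summed CPM per cell had a median of 5431 in marked (range 31.8 to 35035), 5922 in unmarked (325 to 28481) and 11008 in pregnancy cells (2538 to 41542). Thbs1 made up 43.2% of the summed mean in pregnancy and 18.1% in adult cells, whereas Postn made up 13.8% and 41.8%. Sparc held 25.5% and 29.5%, and Ccn2 9.92% and 2.34%. The median number of members detected per cell was 4 in marked, 3 in unmarked and 5 in pregnancy cells, with a maximum of 8.

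Levels of different genes were compared as RPKM, CPM per kilobase of exon. In pregnancy the mean RPKM of Sparc (1331), Thbs1 (894), Postn (504), Ccn2 (496) and Ccn1 (359) came first, followed by Amotl2 (27.1), Spp1 (18.5), Fn1 (3.25) and Tnc (2.61), with Ankrd1 at 0. Postn and Ccn2 were neighbours with close means, whereas their medians were 375 and 278 RPKM. In all adult cells Sparc (875) and Postn (865) led with nearly equal means and medians of 559 and 502 RPKM, and Thbs1 came next at 213. Below them, Ccn1 (91.5), Ankrd1 (78.8) and Ccn2 (66.3) had medians of 4.03, 0 and 6.64 RPKM, so that their order by mean was not their order by median. Marked and unmarked cells shared the first 3 ranks as a group, with Postn first in marked and Sparc first in unmarked cells.

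Detection in the same cell followed the shares of the single genes. Ccn1 and Ccn2 were both detected in 6 of 81 marked, 6 of 58 unmarked and 48 of 71 pregnancy cells. In pregnancy, each of the 50 cells with Ccn1 and each of the 64 cells with Ccn2 also had Thbs1. Sparc and Postn were both detected in 69 of 81 marked, 42 of 58 unmarked and 68 of 71 pregnancy cells. Across cells within a set, Spearman's rank correlation between members was low, from -0.23 to 0.45 over the 36 pairs with a value in all 3 sets. Of these pairs, 9 had a positive rank correlation in each set, 1 a negative rank correlation in each, and 0 reached 0.3 in each. Ccn1 with Amotl2 had the highest smallest value, with a rank correlation of 0.18 in marked, 0.36 in unmarked and 0.34 in pregnancy cells. For Ccn1 and Ccn2 it was 0.13, 0.07 and -0.06. The points are cells that differ in depth and share zeros, and no p is given.

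Of the members, Sparc, Thbs1 and Postn were at 100 CPM or more in at least 25% of the cells of each set. For each of them the most similar of the 933 other genes that met this limit were sought by the smallest rank correlation over the 3 sets (81, 58 and 71 cells). For Sparc these were Acta2, the smooth muscle actin of contractile cells (smallest rank correlation 0.30), and the ubiquitin gene Ubb with its copy Ubb-ps (0.27 and 0.29), whose reads may not be separable. For Thbs1 they were Luzp1 (0.27), Nucks1 (0.25) and Coq10b (0.24). For Postn they were Arhgap5 (0.31), Mylk, the myosin light chain kinase (0.30), and the sodium channel gene Scn7a (0.25). Sparc also had a rank correlation of 0.30, 0.14 and 0.48 with the assigned reads of the cell in marked, unmarked and pregnancy cells.

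The genes around the members were described by 4 lists. For other published YAP and TAZ targets, 10 of 18 genes reached a mean of 50 CPM in adult or pregnancy cells. Of these 10, 0 were higher and 1 was lower by 2-fold or more, beside 15.6% and 13.5% of the 4548 genes, and their median log2 ratio was 0.30, beside 0.05 over the 4548 genes. The lower gene was Ccdc80, a secreted matrix protein, with means of 33.1 in marked, 121 in unmarked and 0.43 CPM in pregnancy cells (log2 ratio -2.94 against all adult cells). Ccdc80 was detected in 2.47%, 1.72% and 0% of these cells, with a median of 0 in each set, so its adult means rested on few cells. The genes of highest mean RPKM in the list were F3, which encodes tissue factor, with means of 42.1, 263 and 195 CPM, and Rbms3, an RNA-binding protein, with 464, 459 and 584 CPM. The ratios of Ccn1 and Ccn2 thus exceeded those of all 10 of these genes, the highest of which was 0.90 for Igfbp3.

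Among Hippo pathway and TEAD genes, 10 of 18 reached that mean, with 0 higher and 2 lower by 2-fold or more, beside 15.6% and 13.5% of the 4548 genes, and a median log2 ratio of 0.02. The 2 lower genes, Mob1b (-1.01) and Nf2 (-1.05), were not lower by that much against both adult sets. Yap1 had means of 321 in marked, 425 in unmarked and 194 CPM in pregnancy cells, a log2 ratio of -0.88. Wwtr1, which encodes TAZ, had means of 329, 351 and 181 CPM, a log2 ratio of -0.86. Against unmarked cells alone the ratio of Yap1 was -1.09. The medians of Yap1 were 73.1 CPM in all adult, 120 in marked, 29.8 in unmarked and 56.2 in pregnancy cells. Those of Wwtr1 were 57.2, 102, 40.9 and 79.9 CPM in the same order. By median, pregnancy cells thus lay below marked and above unmarked cells for both genes, whereas their means were below both adult sets. Detection was 48.2% and 39.4% in adult and pregnancy cells for Yap1, and 43.2% and 43.7% for Wwtr1. Tead1, the TEAD gene with the highest mean CPM, had a log2 ratio of 0.29. Its medians were 52.5 CPM in all adult and 204 CPM in pregnancy cells, and its detection was 39.6% and 69.0%.

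Among receptors of matricellular proteins, 10 of 18 reached the mean, with 1 higher and 5 lower by 2-fold or more, beside 15.6% and 13.5% of the 4548 genes, and a median log2 ratio of -0.53. Each of these 6 genes was past 2-fold on the same side against both adult sets, as were 10.1% of the 4548 genes higher and 6.02% lower. The higher gene was Itga8, the integrin subunit that pairs with integrin beta 1 to bind fibronectin, tenascin C and osteopontin, at 39.2 in marked, 50.0 in unmarked and 244 CPM in pregnancy cells (log2 ratio 2.24). The thrombospondin receptors Cd47 and Cd36 were lower, at -1.22 and -3.67. The Cd36 means were 112, 1306 and 38.6 CPM in marked, unmarked and pregnancy cells, with medians of 0, 12.5 and 0 CPM. Cd36 was detected in 2.47%, 25.9% and 12.7% of these cells, so its share in pregnancy was above that in marked cells. Cd47 was detected in 27.2%, 12.1% and 12.7%, in the same order. Sdc4, the heparan sulphate proteoglycan syndecan 4 and the list's most abundant gene, was lower at -1.50, with means of 14976, 12082 and 4862 CPM. Itgb5 (-1.79) and Ptprz1 (-2.41) were the other lower genes. Itgb1, which encodes the shared beta 1 integrin chain, lay within 2-fold at 0.32.

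Of the other CCN, SPARC, thrombospondin and tenascin family members, 4 of 19 reached the mean, with 1 higher and 1 lower, beside the same 15.6% and 13.5%. Spock3, a testican proteoglycan related to Sparc, was detected in 36.6% of pregnancy cells and had means of 0.35, 7.52 and 169 CPM (log2 ratio 3.74). Sparcl1, another relative of Sparc, had means of 389, 207 and 14.9 CPM (log2 ratio -3.70) and was detected in 7.91% of adult cells. Fstl1, a secreted follistatin-like protein, was the most abundant at 2125, 1828 and 2418 CPM. Thbs2, Thbs4 and Ccn3 had means under 6 CPM in each set.

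**Figure D4:**
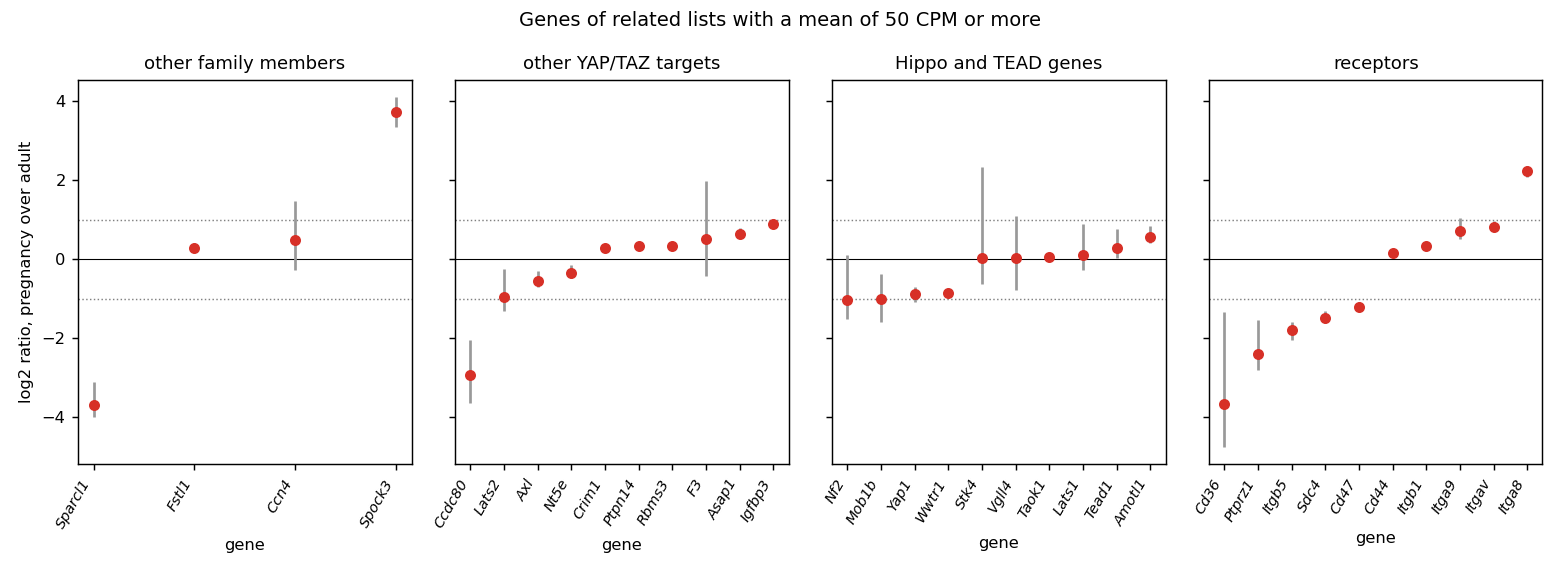
Log2 ratio of pregnancy over all adult cells, from mean CPM (red points, pseudocount 10 CPM) for genes of 4 related lists whose mean reached 50 CPM, with grey bars joining the ratios against each adult set and dotted lines at 2-fold. The YAP and TAZ targets other than Ccdc80 and all Hippo and TEAD genes but Mob1b and Nf2 lie within 2-fold, whereas 5 of the 10 receptors lie below it.

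The remaining marker lists give the setting of these values. Of the 11 core basal genes, 3 were higher and 2 lower in pregnancy by 2-fold or more, beside 15.6% and 13.5% of the 4548 genes, and Mylk (1.41), the transcription factor gene Trp63 (means of 91.1, 83.7 and 267 CPM) and the keratin gene Krt17 (-2.81) kept this against both adult sets. Acta2 and Tagln, the contractile genes of highest mean RPKM, lay within it at 0.76 and -0.23. Of the 8 luminal genes, Wfdc18, a secreted protein of the milk-making lineage, had means of 5.51, 73.1 and 508 CPM in marked, unmarked and pregnancy cells. Its medians were 0, 0 and 6.88 CPM, and it was detected in 15.5% of pregnancy cells. The 8 luminal genes summed to a median of 645 and a maximum of 35465 CPM per pregnancy cell. Epcam lay within 2-fold at -0.37. At least 3 luminal genes were detected in 16 marked, 9 unmarked and 9 pregnancy cells. In the fibroblast list, Pdgfrl had means of 62.1, 58.7 and 35.7 CPM. Of the immune list, the genes of highest mean RPKM were Cd74 (495, 5.97 and 9.33 CPM) and Tyrobp (77.5, 0.40 and 0.57 CPM). Both had medians of 0 in each set and were detected in 4.94% and 1.23% of marked cells. The endothelial genes Pecam1 (0.66, 95.4 and 4.05 CPM) and Egfl7 (0.12, 102 and 1.60 CPM) likewise had medians of 0 in each set, and each was detected in 3.45% of unmarked cells. Of the pericyte genes, Mcam was lower in pregnancy (-1.70) and Pdgfrb had means of 62.3, 8.48 and 29.5 CPM.

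Immediate early genes, which are also induced by tissue dissociation, were set beside Ccn1 because Ccn1 belongs to the serum-induced genes. Of their 13 genes, 1 was higher (Jun, 1.32) and 1 was lower (Dusp1, -2.34) by 2-fold or more, beside the same shares of all genes, with a median log2 ratio of -0.01. Fos and Egr1 had ratios of -0.16 and -0.01. Within the sets, the rank correlation of Ccn1 with Jun was 0.42 in marked, 0.43 in unmarked and 0.12 in pregnancy cells. With Fos it was 0.39, 0.06 and 0.10, and with Egr1 0.31, 0.28 and 0.07. Their part in the Ccn1 levels was not tested.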

How the data were processed

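Single-cell libraries were made on the Fluidigm C1 from 312 cells and sequenced on an Illumina NextSeq. The deposited values are raw counts, whole read pairs per Entrez gene, which the authors obtained by aligning to mm10 with Subread 1.5.0 and assigning with featureCounts. The counts carry no molecular identifiers, and use of the strand is not stated. The authors state that capture sites were inspected for single cells; no doublet caller was run. A deposited table of the whole series was not used.

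Of 27179 gene IDs, 25275 matched a RefSeq symbol (GRCm38), and IDs without one held 1.66% of reads. After 15 mitochondrial and 124 ribosomal protein genes were removed, 25136 genes remained for CPM. Cells needed 50000 assigned reads and 1000 genes, which left 210. Each set was treated as 1 sample, since the labels name no animals. Log2 ratios of mean CPM (pseudocount 10 CPM) were called at 2-fold. Shares have exact Clopper-Pearson and sums exact Poisson 95% intervals, medians have binomial-rank intervals, and the floor was 3 reads. Thinning was to 50000 reads without replacement. The ratio code was tested on simulated data. The members and lists were chosen with earlier results of these data known. All members were named. From other lists, genes past 2-fold with the same sign against both adult sets and a mean of 50 CPM, and the 2 of highest mean RPKM, were named, and a few more were named after their values were seen (Col1a1, Col3a1, Igfbp3, Mob1b, Nf2, Tead1, Thbs2, Thbs4 and Ccn3). Genes similar to a member were the 3 with the largest smallest rank correlation. Python 3.11.15, numpy 2.4.6, pandas 2.3.3 and scipy 1.17.1 were used, and edgeR 4.0.16 and DESeq2 1.42.0 (R 4.3.3) supplied scaling factors for alternatives.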

Additional observations from a re-analysis of the deposited data

Results flagged for a closer look

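Reads of the 10 genes were also present in the cells that were not retained, which no comparison used. In the 98 adult cells left out, they made up 0.667% of 1171743 assigned reads (exact interval 0.653 to 0.682%). In the 4 pregnancy cells left out, they made up 0.892% of 93619 assigned reads (0.833 to 0.954%). Each value was noted because it comes from data outside the main measurement and lies above the limit that a count of 0 allows. The 98 adult cells included 385 Spp1 reads, of which 384 were in unmarked cells.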

How the results depend on the processing

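Ccn1, Ccn2 and Thbs1 were above 0 under all 12 alternatives, with log2 ratios of pregnancy over adult from 1.46 to 2.86, from 2.32 to 3.81 and from 1.80 to 3.32, and Ankrd1 was below 0 under all 12, from -7.13 to -0.98. Amotl2, Spp1, Fn1 and Postn had both signs, Postn only with the difference of mean log2 values, a scale on which the median of all genes was 0.38. The count of members lower in pregnancy, 2, became 1 with a pseudocount of 100 CPM, 1 with summed reads, 0 with mean log2 values, 1 against marked cells and 4 against unmarked cells. It became 3 with a pseudocount of 1 CPM, with DESeq2's size factors and without the highest cell of each set. The count of members higher, 3, became 5 against marked cells. It became 4 against unmarked cells, with mean log2 values and without the highest cell of each set. It was also 4 without the cells that lacked basal genes or carried another list. The 4 members apart between the adult sets became 2 with a pseudocount of 100 CPM, 1 with mean log2 values, 2 without the highest cell of each set, and 6 both with summed reads and with cells of at least 100000 reads and 1500 genes. They became 3 without the cells that lacked basal genes or carried another list. With a minimum mean of 10 CPM, and with no minimum, 3 other CCN, SPARC, thrombospondin and tenascin family members were higher and 3 lower, 1 other YAP and TAZ target was higher and 2 receptors were higher. The causes were not tested. Scaling by edgeR's TMM or DESeq2's size factors moved none of these 3 counts of members by over 1.5 times. No paired analysis was possible because the numbers in the titles only name cells and no test was run. Depth limits the low genes most, as the unmarked cells had the fewest reads. With 1 sample per group, variation between animals is not measured.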
